A study of Mus musculus with 12 samples.

Results

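Acinar digestive enzyme genes were followed as copy number in the genomes of a pair of mouse pancreatic ductal adenocarcinoma (PDAC) lines. The list of 9 genes was given with the study as Amy1, Cpa1, Cpb1, Cela1, Cela2a, Ctrb1, Pnlip, Prss2 and Cel. It was defined by function, but it was chosen with earlier results of these data known. All 9 were found among the 22048 genes named in the segment tables of the lines. Genomic DNA of each line was sequenced by whole-exome sequencing (WES) as 1 library: line 15376T as WES-15376T, and line 14837T as WES-14837T. Both lines were isolated from C57BL/6 mice whose alleles included p48-Cre, ROSA_rtTA and a floxed p53 allele (p53 L/+), and their genotype label is WT, which here sets them apart from a LIN28B knockout of 15376T. Cre stands under the control of p48, the gene Ptf1a, which is itself a regulator of acinar genes. The ages of the mice were not given in the sources used here. The RNA libraries and the tail DNA of the series were not analysed here, so nothing below is a measure of expression.

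Acinar cells make up most of the exocrine pancreas and secrete digestive enzymes, many of them as inactive precursors that are activated in the gut. Amylases cut starch, carboxypeptidases and the serine proteases trypsin, chymotrypsin and elastase cut proteins, and lipases cut fats. PDAC cells have a ductal character, and in mouse models they can arise from acinar cells that lose their enzyme program. A copy number change alters how many gene templates a cell carries, which is separate from whether the gene is used.

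The authors divided the genome of each line into segments, which are runs of neighboring bins with a common coverage. For every segment the tables give the coverage as a log2 ratio to a reference, the copy number as an integer, the mean read depth and, for most, a B-allele fraction (BAF, how much of the reads at variant sites carried the other allele). A gene takes the value of the segment that covers it. More than 2 copies are called gained here and fewer than 2 are called lost, and the integer copy numbers followed log2 thresholds of -0.25 for a loss, 0.2 for a gain to 3 copies and 0.7 for 4 or more. If every cell had changed and the rest of the genome stood at 2 copies, 3 copies would give a log2 of 0.58 and 1 copy would give -1. The number of chromosome sets in the lines was not given in the sources used here. The mean depth of autosomal segments at 2 copies was 46.0 in WES-15376T compared with 47.5 in WES-14837T. Among these segments log2 had an SD of 0.090 over 103 segments (WES-15376T) and 0.095 over 96 segments (WES-14837T). These SDs serve as a yardstick, since 1 library gives no replicate error. They are a spread between segments that the call thresholds already confine, and not the error of a repeated library. For a difference between the lines they combine to 0.13. The capture probes were designed for human exons according to both the labels and the methods, and their part in the depth of a mouse gene was not tested.

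Of the 9 enzyme genes, 5 were called away from 2 copies in at least one line. Amy1 and Cpb1 were gained in both lines, Cela2a was lost in both, and Cela1 and Pnlip were gained in WES-14837T alone by call. Cpa1, Prss2, Ctrb1 and Cel were called at 2 copies in both lines. In WES-15376T, 3 of 9 were therefore called, while 41.0% of all genes were called (8.85% gained and 32.1% lost). In WES-14837T, 5 of 9 were called, of which 4 were gained, while 48.4% of all genes were called (20.7% gained and 27.8% lost). The calls differed between the lines for 2 of 9, beside 31.4% of all genes. The shares of the enzyme genes that were called at all, or called differently, lie near those of all genes. The median log2 of the 9 genes was 0.0086 in WES-15376T against 0.085 in WES-14837T, beside -0.029 and -0.049 over all genes. The genes lie on 7 chromosomes and in 10 segments of WES-15376T and 8 segments of WES-14837T, so they do not give 9 independent values. No test between the lines is possible with 1 library per line, and no p-value is given.

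**Figure D1:**
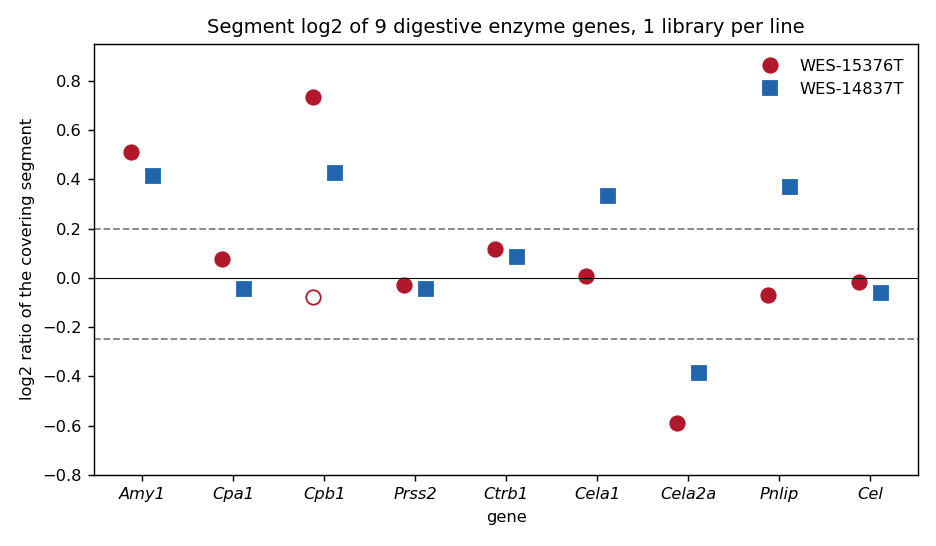
Log2 ratio of the segment that covers each of the 9 enzyme genes (vertical axis) in WES-15376T (red circles) and WES-14837T (blue squares), with 1 library per line and therefore no error bars. The dashed lines mark the thresholds for a gain (0.2) and a loss (-0.25), and the open circle is the 2-copy part of Cpb1 in WES-15376T, which lies 0.81 below the 4-copy part of the same gene.

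The sequence just upstream of the annotated start is shown for the 5 genes called away from 2 copies, since their copy number includes the promoter. The windows run from 40 to 11 bases before the RefSeq start on GRCm38, 5′ to 3′ on the strand of the gene, and capitals mark TATAAA, the core of a TATA box. Cpb1 and Amy1 are on the minus strand of chromosome 3 at chr3:20275744-20275773 and chr3:113577761-113577790, Cela1 on the minus strand of chromosome 15 at chr15:100687931-100687960, Cela2a on the minus strand of chromosome 4 at chr4:141826016-141826045 and Pnlip on the plus strand of chromosome 19 at chr19:58670325-58670354.
Cpb1: ccaggaaaattattaatcaagatctgatag
Amy1: ttagatgctaataaattgtcctgctcaggt
Cela1: ctgataagaggcgTATAAAgagggctcggt
Cela2a: taaggccactcataaaaaggaagcttggcc
Pnlip: aacactcaccTATAAAagggcatatcagtg
The start of Cpb1 lies in a segment of 4 copies in WES-15376T and 3 copies in WES-14837T. Both starts that RefSeq gives for Amy1 lie in segments of 3 copies in each line. In this window TATAAA was present upstream of 3 of the 9 enzyme genes (Cela1, Pnlip and Prss2), in 3 of their 10 promoters. Of the 32851 promoters of the table, 2.08% held it. Over the 300 bases around the start, read on either strand, TATAAA was found for 5 of 9 genes (13.6% of all promoters). Also on either strand, the letters TTTCCCA, the TC box that the PTF1 complex of acinar cells binds, were found for 5 of 9 (8.06% of all promoters): Cel, Cela2a, Cpa1, Ctrb1 and Prss2. CANNTG, the E box that is the other part of a PTF1 site, was found for 8 of 9, where 72.3% of all promoters hold one. Its first letters, CA, can be the last letters of TTTCCCA. By promoter, the unit of the shares, the 300-base counts were 5 of 10 (TATAAA), 5 of 10 (TTTCCCA) and 8 of 10 (CANNTG). These matches describe the letters alone, and the copy number calls do not bear on whether a factor binds.

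Amy1, which encodes the salivary amylase in mouse while the Amy2a genes encode the pancreatic one, was called at 3 copies in both lines. On GRCm38 it spans 113555952 to 113577750 of chromosome 3. The segment that covers it had a log2 of 0.51 in WES-15376T, over 1118 bins from 102922975 to 114102635. In WES-14837T its segment had a log2 of 0.42, over only 77 bins from 109496830 to 113611315. The difference of 0.096 was smaller than the spread of 0.13. Over the same 8 bins the own depth of Amy1 was 95.4 in WES-15376T compared with 95.6 in WES-14837T. Scaled by the mean depth at 2 copies of each line, the own depth ratio of WES-15376T to WES-14837T was 0.043 on the log2 scale. Over 1985 autosomal genes listed in both lines with the same bins, at least 5 of them, such a ratio scattered around the difference of the segments with an SD of 0.15. By own depth as by segment, Amy1 did not differ between the lines by more than the spread.

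The pancreatic amylase gene Amy2a5 lies 297 kb from Amy1 in the same segment in each line. Its own depth was 151 in WES-15376T against 148 in WES-14837T, over 2 bins. The amylase genes are near-identical copies of each other, and Amy2a1, Amy2a2, Amy2a3, Amy2a4 and Amy2b are not named in the segment tables, so the depth over Amy1 and Amy2a5 is uncertain. The segment depth in WES-14837T, 47.0, was close to the mean of segments at 2 copies. On the log2 scale it lay at -0.016 relative to that mean, whereas the segment in WES-15376T, with a depth of 71.0, lay at 0.62. Set against the segment's own mean depth, Amy1 stood 1.02 higher in WES-14837T and 0.43 higher in WES-15376T on the log2 scale. The gain of Amy1 in WES-14837T is thus seen in the ratio to the reference and not in the raw depth of its segment. Beyond the gene, both lines had a stretch of 2 copies, beginning at 33.6 kb from Amy1 in WES-14837T (log2 of the next segment 0.023) and at 525 kb in WES-15376T (log2 0.058). These stretches were of 1.49 Mb over 89 bins in WES-14837T and 0.251 Mb over 51 bins in WES-15376T, and the segments after them were again at 3 copies (log2 0.50 and 0.49).

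Cpb1, which encodes procarboxypeptidase B, an enzyme that removes basic residues from the end of a protein, was cut by a segment border in WES-15376T. The gene runs on chromosome 3 from 20249479 to 20275733, with its start at the upper end. The lower segment, from 17948528 to 20252056, had a log2 of -0.076 and 2 copies over 158 bins. The upper segment, from 20262361 to 36164880, had a log2 of 0.74 and 4 copies over 757 bins. The step between them was 0.81, and it falls within the 10.3 kb that lie between the last bin of one segment and the first bin of the other. The start of Cpb1 and 13.4 kb of the gene lie on the 4-copy side, and 2.58 kb at the 3′ end lie on the 2-copy side. Of all genes, 0.358% were named in more than 1 segment of WES-15376T and 0.195% in segments of different copy number, beside 0.535% and 0.231% in WES-14837T, where this held for none of the 9 enzyme genes. Cpb1 was the one enzyme gene called at 4 copies, as were 0.585% of all genes of WES-15376T at 4 or more copies (0.0726% in WES-14837T). Its 0.74 stands close to the threshold of 0.7.

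In WES-14837T Cpb1 lay 17.2 Mb from the lower end of the covered part of the chromosome, and no border with another segment lay nearer. The whole gene was covered by 1 segment from 3000501 to 49318671, with a log2 of 0.43 and 3 copies over 1720 bins. The difference between the lines for the 4-copy part was 0.31, larger than the spread of 0.13. The own depth of Cpb1 was 143 over 8 bins in WES-15376T and 111 over 10 bins in WES-14837T, since the entry of WES-15376T begins at the border. The own depth ratio was 0.41 on the log2 scale, but it does not compare the same bins. For the 46 genes of the 4-copy segment that were listed in both lines with the same bins, at least 5 of them, the median own depth ratio was 0.26 (from 0.047 to 0.45). These depths are part of the coverage behind the segment values, and the genes lie on 1 segment. Their ratios are therefore not separate support for the difference. Cpb1 was the deepest of the 47 genes with at least 5 bins listed for its 4-copy segment in WES-15376T, where the median was 90.7. In WES-14837T 5 of 108 such genes were at or above its depth, Cpb1 included, and the median was 81.5. Against the mean depth of its segment, Cpb1 stood 0.95 higher in WES-15376T and 0.88 higher in WES-14837T on the log2 scale. Own depth is not set against a reference, so this rank also carries how well the gene was captured.

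The neighbors of Cpb1 fall on opposite sides of the border. Cpa3, which encodes a carboxypeptidase of mast cells and lies 7.27 kb below Cpb1, had a log2 of -0.076 and 2 copies in WES-15376T, and of 0.43 and 3 copies in WES-14837T. Agtr1b, an angiotensin receptor gene above Cpb1, had 0.74 and 4 copies in WES-15376T, and 0.43 and 3 copies in WES-14837T. Amy1 and Cpb1 lie 93.3 Mb apart on a chromosome that was gained over most of its length, 82.0% (WES-15376T) and 99.0% (WES-14837T). The 2 shared gains are thus on 1 chromosome. Of all genes, 6.67% were called gained in both lines.

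**Figure D2:**
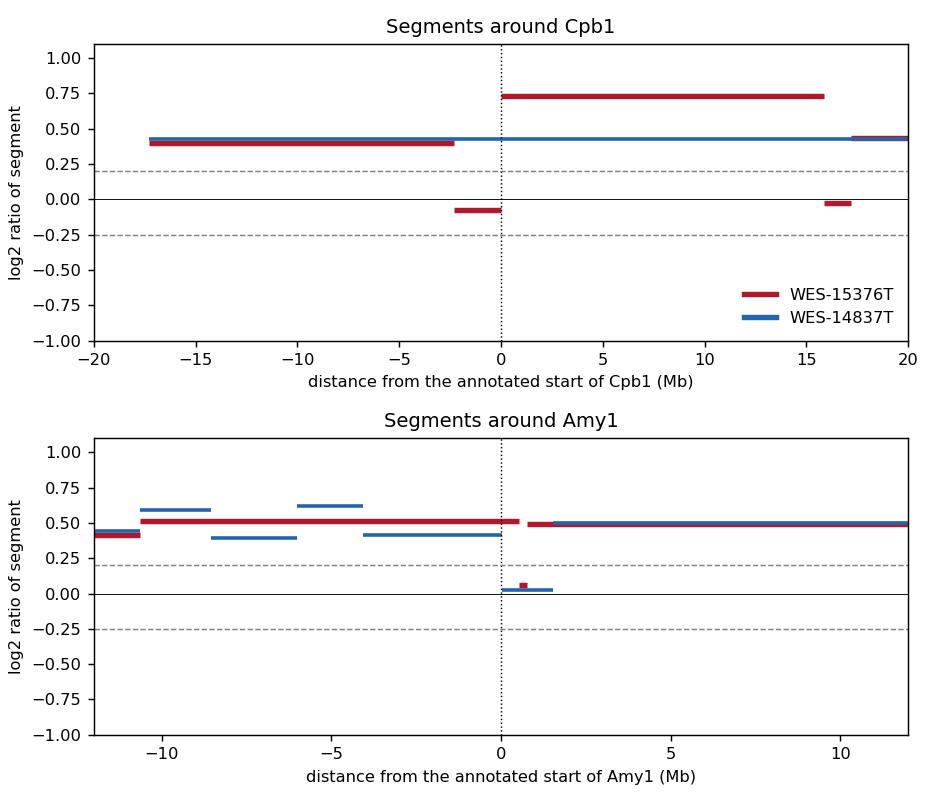
Segment log2 ratio (vertical axis) against the distance in Mb from the annotated start of Cpb1 (top) and Amy1 (bottom) on chromosome 3, with segments of WES-15376T as thick red lines and those of WES-14837T as thin blue lines. The dotted vertical line is the start of the gene and the dashed lines are the call thresholds. WES-15376T steps from -0.076 to 0.74 at Cpb1 whereas WES-14837T stays at 0.43, and both lines have a stretch of 2 copies just beyond Amy1 before they return to 3.

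Cpa1 encodes procarboxypeptidase A, which removes hydrophobic residues from the end of a protein, and lies on chromosome 6 from 30639218 to 30645361. The log2 of its segment, at 2 copies in both lines, was 0.078 over 1237 bins (WES-15376T) and -0.045 over 9981 bins (WES-14837T). The difference of 0.12 was below the spread. Prss2, a trypsinogen gene, lies 10.9 Mb from Cpa1, from 41521776 to 41525079. The log2 of its segment was -0.029 in WES-15376T compared with -0.045 in WES-14837T. The trypsinogen genes Prss1, Prss3, Try4, Try5 and Try10 lie within 216 kb of Prss2 and shared its segment, and thus its 2 copies, in each line. Cpa1 and Prss2 lie in separate segments of WES-15376T but in 1 segment of 127 Mb in WES-14837T. That segment had a BAF of 0.40 and was called with 1 copy of each allele, whereas the segments of Cpa1 and Prss2 in WES-15376T had a BAF of 0.042 and 0.065 and were called with 2 copies of one allele. Low BAF is usual here: weighted by length, the autosomal median of WES-15376T is 0.077 and that of WES-14837T is 0.061. Beside these medians, 0.40 is the value that stands apart. Whether an allele was lost at Cpa1 or Prss2 was not tested. The number of variants behind a BAF is unknown, so the difference in BAF between the lines has no error.

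Ctrb1 encodes chymotrypsinogen B and lies on chromosome 8 from 111686510 to 111691010. Over 1562 bins the log2 was 0.12 in WES-15376T, and over 1467 bins it was 0.085 in WES-14837T, a difference of 0.033. A segment border lies 19.3 kb beyond Ctrb1 in WES-14837T and 179 kb beyond it in WES-15376T. In both lines the next segment was lower, at -0.17 in WES-14837T and -0.19 in WES-15376T, and was also called at 2 copies. Ctrl, which encodes a chymotrypsin-like protease, shared the segment of Ctrb1 in each line.

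The elastase genes Cela1 and Cela2a were called on opposite sides of 2 copies in WES-14837T, while in WES-15376T Cela1 was at 2 copies and Cela2a below. Cela1 lies on chromosome 15 from 100674422 to 100687920. It was called at 2 copies in WES-15376T, with a log2 of 0.0086 over 1274 bins, and at 3 copies in WES-14837T, with a log2 of 0.33 over 1876 bins. The difference of -0.33 exceeded the spread, and its size lay at the 77.2nd percentile of all genes. Mean depth over the segment of Cela1 was 60.5 in WES-14837T and 44.8 in WES-15376T, unscaled and over segments with different borders. Depth is part of the coverage behind log2, so it is not separate support for the gain. In WES-14837T the gained segment runs from 94394573 to 103943185. In WES-15376T the segment of Cela1 ends 1.40 Mb beyond the gene, at a segment of 51 bins called at 1 copy (log2 -0.39).

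Cela2a, which encodes a pancreatic elastase, was called at 1 copy in both lines. The gene lies on chromosome 4 from 141814954 to 141826005. Its segment had a log2 of -0.59 in WES-15376T, over 11970 bins from 3173523 to 146117266, and of -0.39 in WES-14837T, over 8203 bins from 63235266 to the same end. The difference of -0.20 was larger than the spread. Both values lie well above the -1 that 1 copy against 2 in every cell would give. That value assumes a genome of 2 chromosome sets, and the reason for the gap was not tested. Of all genes, 21.6% were called lost in both lines. In WES-15376T the own depth of Cela2a was 29.9 over 8 bins, beside a segment depth of 29.8. Cela2a is not listed with an own depth in WES-14837T, where the smallest absolute log2 of a listed gene was 0.40.

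More protease genes of acinar cells lie on the lost part of chromosome 4. Ctrc, the chymotrypsin C gene whose product helps to degrade trypsin, lies 12.2 kb from Cela2a. Cela3a and Cela3b, a pair of related elastase genes, begin 4.38 Mb away. All 3 shared the segment of Cela2a and its call of 1 copy in each line. In WES-15376T their own depth was 23.8 for Ctrc, 35.5 for Cela3a and 37.0 for Cela3b, over 8 bins each. Relative to the segment these are -0.32, 0.25 and 0.32 on the log2 scale. The SD over 748 genes of the segment with at least 5 bins was 0.45, and none of the 4 protease genes lay farther from the segment than this. Own depth is not set against a reference, so this scatter also carries how well each gene was captured. It could hide a change confined to one gene. The entry of Cela2a overlaps that of its neighbor Casp9 by 150 bases, and Cela3a and Cela3b are alike enough that reads could be split between them, so these own depths are uncertain.

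Pnlip and Cel encode lipases. Pnlip, the pancreatic triglyceride lipase gene, lies on chromosome 19 from 58670365 to 58681799. It was called at 2 copies in WES-15376T, with a log2 of -0.071 over 1099 bins, and at 3 copies in WES-14837T, with a log2 of 0.37 over 829 bins. The difference of -0.44 exceeded the spread and lay at the 89.4th percentile of all genes. By log2 it was the largest of the 9 genes when Cpb1 is taken by its 4-copy part. The 2-copy part of Cpb1 differed by more, at -0.076 in WES-15376T against 0.43 in WES-14837T. Mean depth over the segment of Pnlip was 63.5 in WES-14837T, against 43.6 in WES-15376T, unscaled and over segments with different borders. As for Cela1, depth is not separate support for the gain. Pnliprp1 and Pnliprp2, which encode pancreatic lipase-related proteins, lie 47.1 kb and 77.9 kb from Pnlip and shared its segment, so this group of lipase genes was gained together in WES-14837T. Clps, which encodes colipase, the cofactor of pancreatic lipase, lies on chromosome 17 and had the same calls, at 0.074 in WES-15376T against 0.34 in WES-14837T.

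Cel, the carboxyl ester lipase gene, lies on chromosome 2 from 28555819 to 28563403 and was called at 2 copies in both lines. Its log2 was -0.017 in WES-15376T (4703 bins) and -0.060 in WES-14837T (7575 bins), a difference of 0.043. The BAF of its segment was 0.30 in WES-15376T, with 1 copy of each allele called, and 0.19 in WES-14837T, with 2 copies of one allele called. Over the segments of the 9 genes the BAF ranged from 0.036 to 0.30 in WES-15376T and from 0.022 to 0.40 in WES-14837T, where the autosomal medians weighted by length were 0.077 and 0.061. No BAF was given for the segment of Amy1 in WES-14837T or for the 2-copy part of Cpb1 in WES-15376T.

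**Figure D3:**
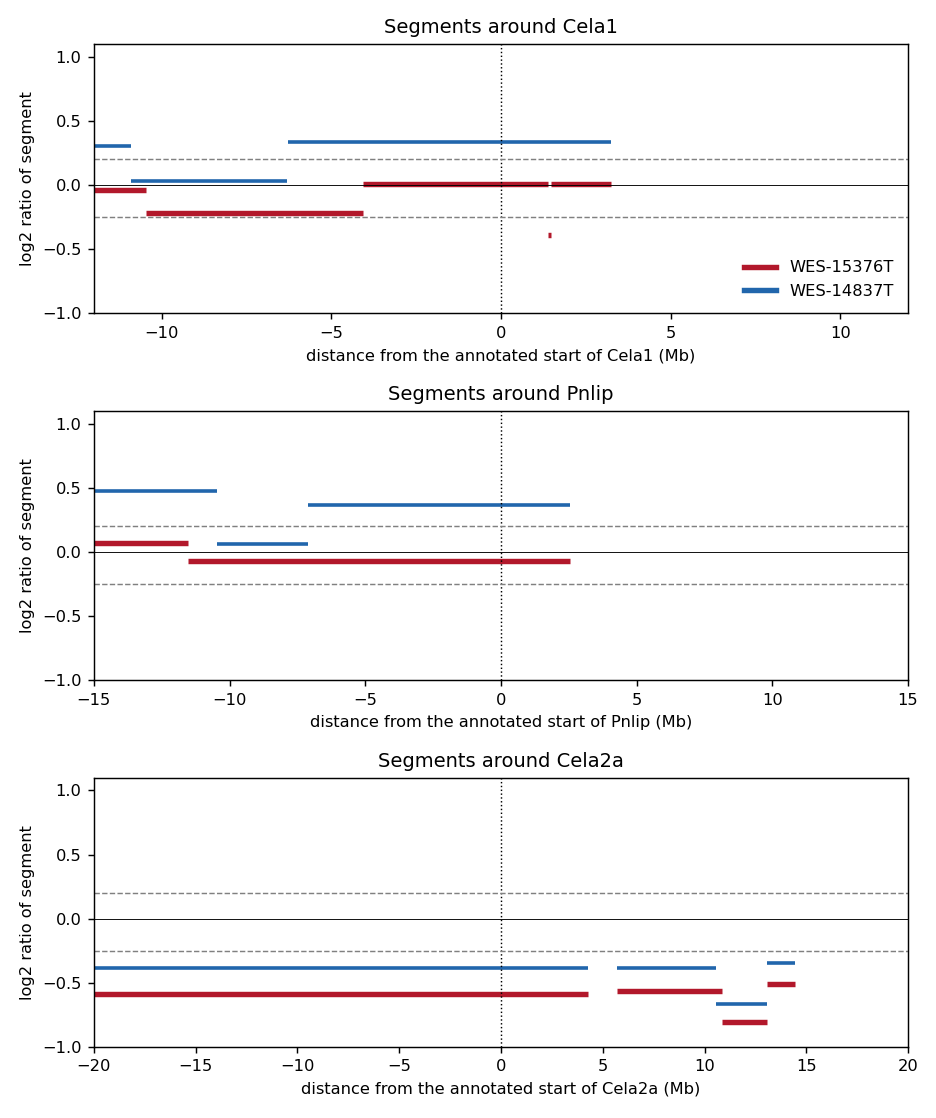
Segment log2 ratio (vertical axis) against the distance in Mb from the annotated start of Cela1 (top), Pnlip (middle) and Cela2a (bottom), with segments of WES-15376T as thick red lines and those of WES-14837T as thin blue lines. Lines end where the segments of the chromosome end, the dotted vertical line is the start of the gene and the dashed lines are the call thresholds. At Cela1 and Pnlip only the line of WES-14837T is above the gain threshold (0.33 and 0.37), and at Cela2a both lines are below the loss threshold (-0.59 and -0.39).

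Set side by side, the difference between the lines exceeded the spread of 0.13 for 4 of 9 genes by log2. They were Pnlip (-0.44), Cela1 (-0.33), Cpb1 by its 4-copy part (0.31) and Cela2a (-0.20). The 2-copy part of Cpb1 went the other way, at -0.076 in WES-15376T against 0.43 in WES-14837T. Over all genes 11032 of 22048 exceeded it, and the median size of the difference was 0.12 for the 9 genes and 0.13 for all genes. By log2 the smallest difference was that of Prss2 (0.016), followed by Ctrb1 (0.033) and Cel (0.043). By segment depth in place of log2, Amy1 also lay beyond 0.13, a spread that was taken from log2 and not from depth. It had the largest difference (0.64), ahead of Pnlip (-0.50), and Ctrb1 had the smallest (0.00083). For Amy1 this sets 1118 bins in WES-15376T against 77 bins in WES-14837T. Over the same 8 bins its own depth ratio was 0.043. Each of these differences is that of the whole segment on which the gene lies.

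**Figure D4:**
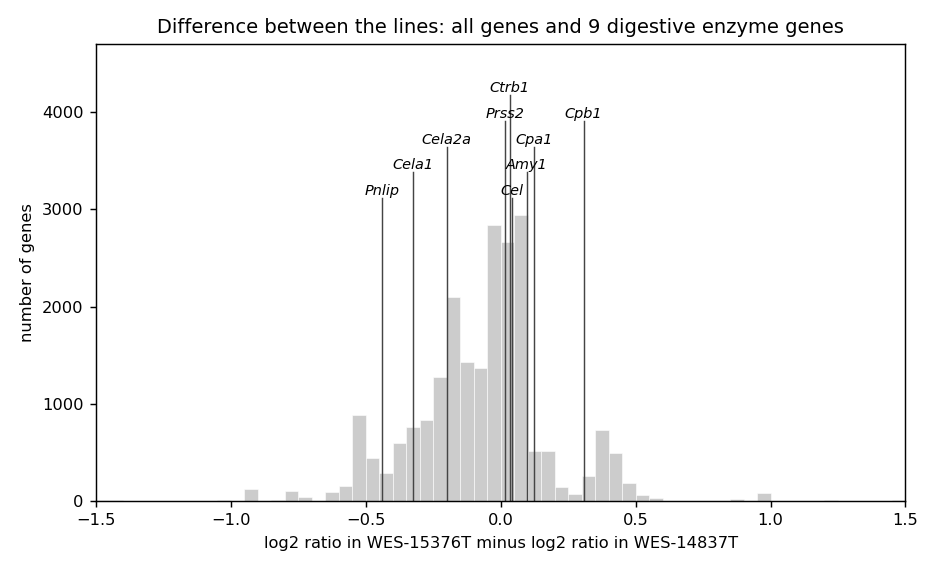
Number of genes (grey bars, 0.05 wide) by the log2 ratio in WES-15376T minus that in WES-14837T, with the 9 enzyme genes as labelled vertical lines whose heights carry no value. Differences beyond 1.5 were counted in the outermost bars. Pnlip (-0.44) and Cela1 (-0.33) lie to the left and Cpb1 (0.31) to the right, while the other genes lie nearer to 0. Cpb1 is drawn by its 4-copy part in WES-15376T alone.

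Other genes of acinar secretion showed changes of both kinds. Of 26 further enzyme genes on a list set by function, with earlier results of these data known, 17 are named in the tables. In WES-15376T 1 of these was gained and 6 were lost, and in WES-14837T 3 were gained and 6 were lost. Over all genes 8.85% were gained and 32.1% lost in the former, and 20.7% gained and 27.8% lost in the latter. The 6 lost genes were lost in both lines, as were 21.6% of all genes. They were Cela3a, Cela3b and Ctrc on chromosome 4, Rnase1 on chromosome 14 (log2 -0.55 in WES-15376T compared with -0.31 in WES-14837T), Dnase1 on chromosome 16 (-0.54 and -0.40) and the kallikrein gene Klk1 on chromosome 7 (-0.53 and -0.46). The 2 of 17 genes with a different call, beside 31.4% of all genes, were Pnliprp1 and Pnliprp2.

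Of 18 genes for accessory and granule proteins, all were named in the tables. In WES-15376T 3 were gained and 5 were lost, and in WES-14837T 5 were gained and 5 were lost. The calls differed for 4 of 18, beside 31.4% of all genes. Clps, Pdia2 (a pancreatic protein disulfide isomerase; log2 0.074 in WES-15376T against 0.34 in WES-14837T) and Rab3d (a GTPase of secretory granules; 0.099 and 0.36) were gained in WES-14837T by call. Vamp8, a SNARE protein of granule release, was called gained in WES-15376T (0.30) and at 2 copies in WES-14837T (-0.045), where it lies in the segment of Cpa1 and Prss2. Reg1, Reg2, Reg3a, Reg3b, Reg3d and Reg3g, genes of secreted lectin-like proteins, share that segment in WES-14837T and were at 2 copies in both lines (0.14 in WES-15376T). The 5 losses were shared by the lines (21.6% of all genes were lost in both), and 4 of these genes lie on chromosome 7 in long lost segments. They were Gp2 (a membrane protein of zymogen granules), Cuzd1, Zg16 and Sycn, all at -0.53 in WES-15376T and between -0.48 and -0.30 in WES-14837T. The other was Spink1, a trypsin inhibitor gene (-0.54 and -0.53). Beside the 41.0% of all genes called in WES-15376T, 7 of 17 further enzyme genes and 8 of 18 accessory genes were called. Beside the 48.4% in WES-14837T, these counts were 9 of 17 and 10 of 18.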

How the data were processed

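Genomic DNA of the lines was analysed as WES, with 1 library per line. The submitters' processing notes name mm10. The aligner, the caller and the copy-number reference were not given in the sources used here. Per the file headers, the segment tables hold columns as CNVkit writes them. The log2 deposited by the authors is a ratio of coverage to that reference. The BAF deposited by the authors is a fraction per segment. The depth deposited by the authors is a mean coverage signal without normalization, for segments and for listed genes. Segment weights, which the authors deposited as a score, entered no result. Copy numbers deposited by the authors followed CNVkit's default log2 thresholds with 0 exceptions among autosomal segments. The read counts behind the values are unknown, so no interval is given.

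The 9 genes were looked up in the gene column of each segment table. A gene named in several segments counts as gained if any of them is gained and none is lost, likewise as lost, and takes the log2 farthest from 0. Each member is named. Genes of 2 further lists (enzymes, accessory proteins) are named where they share a segment with a member or lie within 1 Mb of one, or where the calls differ between the lines. A list of transcription factors was compared by counts. Its named genes, the losses outside these rules and the genes beside Cpb1 were picked with their values in view. The members and lists were chosen with earlier results of these data known. Positions and promoters are from RefSeq on GRCm38.p6, where all 9 genes matched. Values were computed with pandas 2.3.3 and numpy 2.4.6 under Python 3.11.15, and figures were drawn with matplotlib 3.10.9. The counting step was tested on simulated data. Alternatives were other log2 thresholds, recentred log2, segment depth in place of log2, the gene table, other depth scaling and other backgrounds. Leaving out Cpb1 was added after the data were seen. One allele of the mice and one gene of the further enzyme list are not reported here by name.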

Additional observations from a re-analysis of the deposited data

How the results depend on the processing

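The number of enzyme genes called depends most on the threshold. With calls only from an absolute log2 of 0.5, 0 of 9 were called in WES-14837T (5 with the authors' copy numbers) and 3 in WES-15376T, as before, so that 3 calls differed between the lines instead of 2. The share of all genes called at this threshold is not given here, so these counts have no background and are not a result about the enzyme genes. With 0.3, or with recentred log2, every one of the 9 calls in each line stayed as it was. With segment depth in place of log2, Amy1 in WES-14837T lay at -0.016 instead of 0.42 and was no longer called gained, and in WES-15376T it lay at 0.62 instead of 0.51, so its difference between the lines became 0.64 instead of 0.096. The other 8 genes kept their calls in each line, and the cause was not tested. Depth is not set against a reference, so it also carries how well each region was captured. Reading log2 from the gene table gave the segment's value for each member listed there. Without Cpb1, which was left out after the data were seen, 2 of 8 genes were called in WES-15376T and 4 of 8 in WES-14837T. Among autosomal genes alone the shares were 9.21% gained and 30.1% lost in WES-15376T and 21.5% gained and 28.9% lost in WES-14837T. No paired analysis was possible because the lines are single libraries and no result comes from a test. The segments behind the calls hold 77 bins or more, and a change confined to one of these genes was not detectable where its segment is long.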

Other observations

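Of 9 genes for transcription factors of acinar cells, 2 were called in each line, beside 41.0% of all genes in WES-15376T and 48.4% in WES-14837T. For 2 of the 9 the calls differed between the lines, beside 31.4% of all genes. Ptf1a, a subunit of the PTF1 complex that activates the enzyme genes, lies 9.11 Mb from Cel and in the same segment in each line, at 2 copies (log2 -0.017 in WES-15376T and -0.060 in WES-14837T). Bhlha15, the gene of MIST1, a factor for the secretory machinery, was at 2 copies in WES-15376T (0.094) and at 3 in WES-14837T (0.32). Gata4 was called at 1 copy in each line (-0.55 and -0.41). Gata6 was called at 1 copy in WES-15376T (-0.62) and at 2 in WES-14837T (0.093).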
